A study of Homo sapiens with 66 samples.

Results

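A degrader of tagged MED28, a subunit of the head module of Mediator, was given to the leukaemia cell line KBM7 for 6 h, and mRNA was measured by 3' sequencing (QuantSeq). The comparison takes 6 of the 66 libraries of the series. Cells whose genotype is given as MED28-dTAG received 500 nM dTAG7 (3 libraries, replicates A, B and C) or the solvent DMSO alone (3 libraries with the same letters). KBM7 was derived from a chronic myeloid leukaemia, has a nearly haploid genome and carries the BCR-ABL fusion, and all cells of the series are KBM7, so every group shares that fusion. Whether the MED28-dTAG line is 1 clone or a pool, and whether it was made by tagging the native gene, is not given in the sources used here. Other pairs of groups, each of 3 dTAG7 and 3 DMSO libraries at the same dose and time, serve for comparison. Differences in effect were tested against the MED6-dTAG line, tagged on another head subunit, the MED14-dTAG line, tagged on the subunit that joins the modules, and wild-type KBM7, which has no tagged protein. Values and calls are also set beside those of the MED1-dTAG, MED10-dTAG, MED12-dTAG, MED26-dTAG and MED31-dTAG lines, named for further Mediator subunits. The series also holds a CDK9-dTAG line, given 500 nM dTAG7 or DMSO for 6 h. Further wild-type cells received 100 nM dBET6 or 250 nM THAL-SNS-032 for 6 h. These groups are not compared here, but their libraries entered the shared edgeR fit and the mean levels over all libraries. Replicates were wells treated in triplicate, so the p-values measure the spread between these wells, which may be technical.

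Mediator is a large complex that passes signals from transcription factors bound at enhancers and promoters to RNA polymerase II. Its head and middle modules contact the polymerase, its tail binds transcription factors, and a separable kinase module with CDK8 or CDK19 controls its contact with the polymerase. dTAG7 is a small molecule that binds a mutant FKBP12 tag on the protein of interest and the ubiquitin ligase receptor cereblon, so that the tagged protein is marked for the proteasome. The protein itself was not measured in the data used here, so the extent of MED28 loss in these wells is not known from them.

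Each library of the MED28 line held 2680976 to 3784282 counts on genes and 18584 to 27349 counts on spike-in RNA, which was added in equal amounts to each lysate. Levels are given in spike-in-scaled CPM, a library's counts divided by a library size that its spike-in total sets. Of 12 myeloid progenitor markers 11 were in the count table, with CD34, KIT, CD33 and MYB among them. Markers of maturing red cells (2 of 10 listed markers in the table, summed level 0 to 0.847 CPM with dTAG7 and 0 to 0.538 CPM with DMSO), megakaryocytes (1 of 7, at 0.405 to 4.39 CPM with dTAG7 and 2.18 to 2.69 CPM with DMSO) and granulocytes (0 of 7) were at or near 0. Of 8 monocyte markers 3 were in the table, with a summed level of 28.7 to 34.0 CPM with dTAG7 and 51.5 to 60.2 CPM with DMSO. VCAN among them fell (-0.90, edgeR adjusted p = 0.0049), a call that was lost without dTAG7 replicate A. The part of such cells in the results was not tested. The lymphoid genes PAX5 and CD3D were present, with a summed level of 9 lymphoid markers at 133 to 140 CPM with dTAG7 and 123 to 133 CPM with DMSO.

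The total mRNA of dTAG7 and DMSO wells did not differ beyond the spread between wells. The log2 ratio of gene counts to spike-in counts was 7.17, 7.11 and 7.12 in the dTAG7 libraries and 7.31, 7.17 and 7.17 in the DMSO libraries, a difference of -0.08 that leaves 94.3% of the DMSO level (exact two-sided permutation p = 0.2, n = 3 each, where the smallest possible p is 0.1). The groups overlapped, and without DMSO replicate A, the highest of the 6 and of all 66 libraries, the difference was -0.04. In these bulk samples fewer cells and less mRNA per cell cannot be told apart. The same difference was 0.09 in wild-type cells, -0.28 in the MED6 line and -0.66 in the MED14 line. MED6 dTAG7 replicate A stood apart at 6.52, against 6.82 in both other dTAG7 libraries of that line, and without it the MED6 difference was -0.18. In wild-type cells the value was 0.14 without DMSO replicate B, 0.04 without DMSO replicate C and 0.06 without dTAG7 replicate A.

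By gene, falls outnumbered rises among the calls with dTAG7 in the MED28 line. edgeR's quasi-likelihood test called 97 rises (0.775% of 12515 genes tested) and 509 falls (4.07%) at an adjusted p under 0.05, and the median gene changed by -0.04 on the log2 scale. At an unadjusted edgeR p under 0.05 there were 2016 genes, so the number of calls does not show how many genes changed. With TMM scaling, which sets the typical gene to no change, 270 genes rose (2.09% of 12892) and 559 fell (4.34%), so rises made up 16% of all calls on the spike-in scale and 32.6% under TMM. On both scales 97 genes rose and 472 fell. A fall of at least 2-fold was called for 88 genes and a rise of at least 2-fold for 18. The median called fall was -0.63 and the median called rise 0.66. No overlap between the dTAG7 and DMSO libraries was seen for 507 of the falling and 96 of the rising genes, and among all genes 17.4% had every dTAG7 library below and 9.16% every dTAG7 library above the DMSO libraries. The total of 606 calls became 336 without DMSO replicate A, 340 without dTAG7 replicate B and 366 without dTAG7 replicate C, and 192 falls and 25 rises were called whichever of the 6 libraries was left out.

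**Figure D1:**
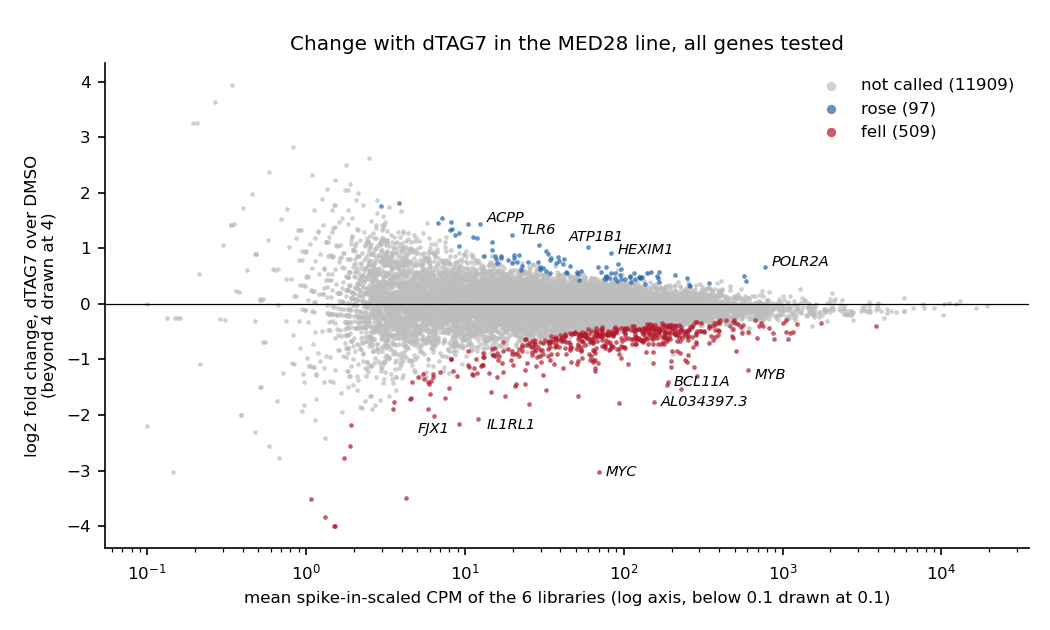
Log2 fold change of dTAG7 over DMSO in the MED28 line (vertical axis) against the mean level of a gene over the 6 libraries (horizontal log axis, spike-in-scaled CPM), 1 point per gene tested. The 509 falling genes (red) reach far below 0, with MYC at -3.03 and 69.8 CPM, while the 97 rising genes (blue) stay closer to 0.

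Falls were seen mostly among genes of middle and high level. Of genes with a mean of 100 to 300 CPM over all libraries 8.41% fell, and 6.12% of those above 300 CPM, against 0.984% of those under 5 CPM, where few counts limit what can be called. Protein-coding genes fell in 4.31% of cases, lincRNAs in 2.60% and antisense RNAs in 2.36%. Among chromosomes the share of tested genes that fell ran from 0% for the mitochondrial genome to 10.4% on chromosome 21 (12 of 115 genes). No gene encoded by mitochondrial DNA, of 30 tested, was called.

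The largest change among genes of at least 5 CPM was that of MYC, the transcription factor that drives growth and ribosome production (ENSG00000136997, hg38 chromosome 8, 127735434 to 127741434). MYC stood at 17.4, 15.4 and 13.0 CPM in dTAG7 libraries A, B and C, against 145, 104 and 124 CPM in the DMSO libraries. Every dTAG7 library lay far below every DMSO library. The log2 fold change was -3.03 ± 0.34 (SE; edgeR adjusted p = 1.47e-09). Of the 12 MYC network genes tested 1 fell, MYC itself, and 0 rose, against 4.07% falls among all genes, and 2 fell under TMM or without DMSO replicate B. Its partner gene MAX (-0.58) and its relatives MYCN (-1.32) and MNT (-0.62) were not called on the spike-in scale (edgeR adjusted p = 0.077, 0.069 and 0.072), MAX was called under TMM (edgeR adjusted p = 0.0186), and the list had a median of -0.30, against -0.04 for all genes.

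FJX1, which encodes a secreted glycoprotein, and IL1RL1, the gene of the interleukin-33 receptor ST2, came next in size. FJX1 had 4.66, 2.20 and 3.24 CPM with dTAG7 and 17.7, 11.8 and 15.3 CPM with DMSO (-2.16 ± 0.37, edgeR adjusted p = 6.69e-05). IL1RL1 (hg38 chromosome 2, 102311502 to 102352037) had 4.24, 6.59 and 2.83 CPM with dTAG7 and 20.4, 24.2 and 14.8 CPM with DMSO (-2.08 ± 0.30, edgeR adjusted p = 2.44e-06). The groups did not overlap for either gene. IL18R1, the interleukin-18 receptor gene that overlaps IL1RL1 on the same strand, was looked at after its values were seen, and it fell too, at 0.424, 0.366 and 1.21 CPM with dTAG7 against 9.14, 4.85 and 9.60 CPM with DMSO (-3.50, edgeR adjusted p = 0.000259). Reads over such overlapping genes may have been split between them by the authors' counting, so the share of each gene is uncertain.

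A pair of noncoding RNAs gave very low p-values. AC244502.1 (hg38 chromosome 14, 22380680 to 22482959, minus strand), in the T cell receptor delta locus, had 51.3, 41.3 and 34.4 CPM with dTAG7 and 153, 136 and 145 CPM with DMSO (-1.78 ± 0.13, edgeR adjusted p = 9.3e-16). TRDC, the constant gene of that receptor on the opposite strand inside it, fell as well (-1.66 ± 0.28), and without a stated strand setting in the sources used here reads of these genes cannot be told apart. AL034397.3 on chromosome X (66015461 to 66020422), annotated as antisense, had 73.3, 73.2 and 66.4 CPM with dTAG7 and 254, 248 and 219 CPM with DMSO (-1.76 ± 0.17). The microRNA gene MIR223, which is not in the count table, overlaps it on the same strand. For both AC244502.1 and AL034397.3 the dTAG7 and DMSO libraries did not overlap in level. The other falls among the 15 largest were those of ANKRD13B (-2.02), the pseudogene FAM86C2P (-1.88), FAM19A2 (-1.81), the peptide hormone gene APLN (-1.69), the mitochondrial phospholipase gene PLD6 (-1.66), the U2 small nuclear RNA copy RNU2-63P (-1.63), the G protein regulator RGS16 (-1.59), the growth factor gene HGF (-1.55) and ZFP36L2 (-1.53). Reads of FAM86C2P and RNU2-63P may belong to near-identical copies, and ANKRD13B, FAM19A2 and PLD6 overlap genes on the opposite strand. FAM86C2P and RNU2-63P lost their calls without 1 or more of the libraries, with an edgeR adjusted p of up to 0.0815 and 0.129.

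Below 5 CPM, 5 called genes had at most 3 counts over the 3 dTAG7 libraries, all lower with dTAG7, and they were looked at after their values were seen. CXCL10, a chemokine gene, had 0 counts with dTAG7 and 3, 9 and 6 counts with DMSO, at least 7.55-fold lower when 3 counts are taken as the floor over the group. LIF, a cytokine gene, had 1 count with dTAG7 and 18 with DMSO, a DMSO to dTAG7 ratio of 22.7 (95% exact counting interval 3.58 to 944). RAG2, part of the V(D)J recombinase, had 1 count with dTAG7 and 15 with DMSO (ratio 18.9, 2.90 to 795). These intervals cover counting error only.

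**Figure D2:**
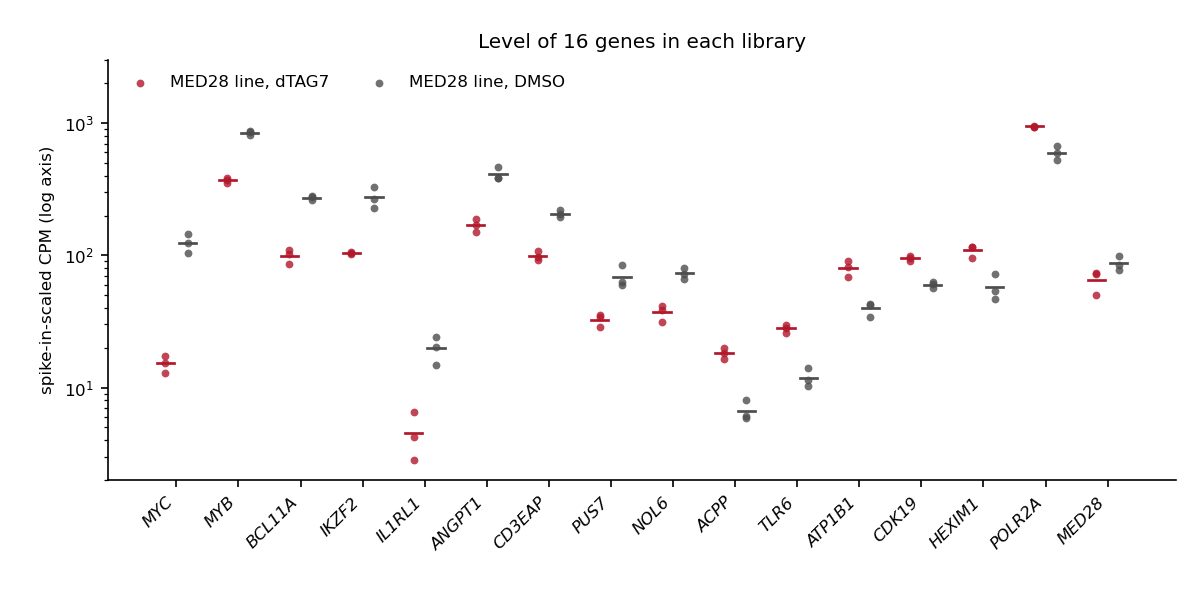
Level of 16 genes in each library of the MED28 line (log axis, spike-in-scaled CPM), with dTAG7 libraries (red) left of DMSO libraries (grey), 1 point per library and bars at the mean. From MYC to NOL6 all dTAG7 points lie below all DMSO points, and from ACPP to POLR2A all lie above, while MED28 itself shows a smaller gap.

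Transcription factors of blood cells formed a large group of falls. Of 39 tested members of that list 14 fell and 0 rose, against 4.07% falls among all genes, with a median of -0.34 against -0.04 for all genes. Under TMM 14 fell, against 4.34% of all genes. BCL11A, which represses fetal globin and is needed for lymphoid development, had 110, 102 and 86.6 CPM with dTAG7 and 278, 282 and 260 CPM with DMSO (-1.46 ± 0.13, edgeR adjusted p = 5.23e-13). IKZF2, an Ikaros family factor, had 106, 104 and 102 CPM with dTAG7 and 331, 230 and 264 CPM with DMSO (-1.40 ± 0.16). MYB, a regulator of blood progenitors, had 387, 374 and 355 CPM with dTAG7 and 861, 866 and 815 CPM with DMSO (-1.19 ± 0.11, edgeR adjusted p = 2.54e-12). No library of one group reached the range of the other for these 3 genes. ZBTB16 (-1.01), SATB1 (-1.01), ETV6 (-0.92), RUNX3 (-0.65), LYL1 (-0.60), GFI1 (-0.54), TAL1 (-0.46), CEBPA (-0.45), ZEB2 (-0.41), STAT5A (-0.38) and MEF2C (-0.33) made up the rest. GATA2, a factor of early progenitors, had 94.0, 84.9 and 79.7 CPM with dTAG7 and 122, 104 and 93.4 CPM with DMSO and was not called (-0.30 ± 0.15, edgeR adjusted p = 0.299). GATA1, the erythroid factor, was too low to judge at 1.62 to 4.24 CPM with dTAG7 and 1.31 to 2.69 CPM with DMSO. Without DMSO replicate A or without dTAG7 replicate B the count of 14 became 9.

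Surface receptors and secreted signals of progenitor and immune cells fell in 8 of 26 tested cases, against 4.07% of all genes, with 0 rises and a median of -0.32 against -0.04 for all genes. All 8 were called whichever library was left out. Beside IL1RL1 these were the receptor gene TNFRSF8, which encodes CD30 (-1.45 ± 0.22), the TIE2 ligand gene ANGPT1 (-1.29 ± 0.12), IL2RA (-1.07), the integrin ITGA4 (-0.78), the progenitor antigen CD34 (-0.69), the transferrin receptor TFRC (-0.67) and CD44 (-0.63). ANGPT1 had 187, 150 and 168 CPM with dTAG7 and 467, 384 and 384 CPM with DMSO, with no overlap. KIT (-0.19) and CD33 (-0.14) were not called. The summed level of the 11 progenitor markers was 1100 to 1177 CPM with dTAG7 and 1928 to 2194 CPM with DMSO. Of these markers ANGPT1, MYB, CD34 and HDC fell and 7 were not called. ANGPT1 and MYB hold much of the sum, with MYB alone at 355 to 387 CPM with dTAG7 and 815 to 866 CPM with DMSO. The summed lymphoid markers stayed within 123 to 140 CPM in all 6 libraries, but TRDC and IL2RA, which are not on that list, fell. Of 30 genes of BCR-ABL signalling 3 fell and 0 rose, OSM (-1.88), the cyclin gene CCND2 (-0.61) and STAT5A, and under TMM 4 fell and 2 rose, against 4.34% and 2.09% of all genes. Without DMSO replicate A or dTAG7 replicate B none of these genes was called (edgeR), and without dTAG7 replicate C 1 was.

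Genes for making ribosomes fell as a second large group. The pre-ribosomal RNA is cut and folded by the 40S processing machinery and the 60S assembly factors. Of 47 tested 40S processing genes 24 fell and 0 rose, with a median of -0.43, and of 48 tested 60S assembly genes 29 fell and 0 rose, with a median of -0.48, against 4.07% falls and a median of -0.04 for all genes. Under TMM 26 and 30 fell, against 4.34% of all genes. Of 17 RNA polymerase I genes 6 fell and 0 rose (median -0.30). Without DMSO replicate A the counts were 16 for 40S processing, 21 for 60S assembly and 3 for polymerase I, and without dTAG7 replicate C 2 polymerase I genes were called. These lists were chosen with results of these data known.

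NOL6, a protein of the 40S processing complex, had 41.5, 38.4 and 31.6 CPM with dTAG7 and 80.1, 72.7 and 65.9 CPM with DMSO (-0.97 ± 0.19, edgeR adjusted p = 0.000412). RRP9, which binds the U3 small nucleolar RNA, had 43.6, 35.1 and 48.2 CPM with dTAG7 and 81.7, 75.9 and 80.3 CPM with DMSO (-0.91 ± 0.18). Both genes stood clear of their DMSO range in every dTAG7 library, as did WDR3 (-0.86 ± 0.13). PUS7, a pseudouridine synthase counted here with the 60S factors, had 35.2, 34.0 and 28.7 CPM with dTAG7 and 84.4, 63.0 and 59.8 CPM with DMSO (-1.08 ± 0.18, edgeR adjusted p = 2.81e-05). PPAN (-1.07 ± 0.17), RRS1 (-1.04 ± 0.13), NOP16 (-1.02) and GNL3 (-0.84) fell as well. PPAN overlaps P2RY11 on the same strand, so its counts may be shared. CD3EAP, which encodes a subunit of RNA polymerase I, had 108, 92.2 and 96.7 CPM with dTAG7 and 220, 207 and 194 CPM with DMSO (-1.06 ± 0.12, edgeR adjusted p = 7.54e-09). It overlaps ERCC1 and PPP1R13L on the opposite strand. POLR1C (-0.82 ± 0.20) and POLR1A (-0.81 ± 0.12), further subunits of this polymerase, also fell.

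The promoters of 4 of these genes are shown, chosen because each holds CACGTG, the E-box that MYC with MAX and several related factors recognise. The windows are RefSeq sequences on GRCh38.p14 from 250 bases before to 50 bases after an annotated start, 5′ to 3′ on the strand of the gene, with CACGTG in capitals. They are chr9:33473875-33474174 (minus strand) for NOL6, chr3:51941855-51942154 (minus) for RRP9, chr7:105522222-105522521 (minus) for PUS7 and chr19:45406394-45406693 (plus) for CD3EAP, whose RefSeq symbol is POLR1G. Counted from the start as +1, the motif begins at 14 in NOL6, at -5 in RRP9, at 29 in PUS7 and at -12 in CD3EAP. The windows of WDR3, PPAN, POLR1C and POLR1A, which fell too and are not shown, hold no CACGTG.
NOL6: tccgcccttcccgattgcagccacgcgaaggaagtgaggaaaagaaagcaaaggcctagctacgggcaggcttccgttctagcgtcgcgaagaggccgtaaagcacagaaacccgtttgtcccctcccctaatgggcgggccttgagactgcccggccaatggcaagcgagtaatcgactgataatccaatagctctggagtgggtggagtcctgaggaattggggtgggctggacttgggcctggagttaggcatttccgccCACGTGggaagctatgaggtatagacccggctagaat
RRP9: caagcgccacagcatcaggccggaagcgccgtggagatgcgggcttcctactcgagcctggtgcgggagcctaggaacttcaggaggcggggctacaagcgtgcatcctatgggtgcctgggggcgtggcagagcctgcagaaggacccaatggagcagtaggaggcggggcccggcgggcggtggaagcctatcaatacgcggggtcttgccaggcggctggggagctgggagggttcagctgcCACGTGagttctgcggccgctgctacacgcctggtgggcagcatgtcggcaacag
PUS7: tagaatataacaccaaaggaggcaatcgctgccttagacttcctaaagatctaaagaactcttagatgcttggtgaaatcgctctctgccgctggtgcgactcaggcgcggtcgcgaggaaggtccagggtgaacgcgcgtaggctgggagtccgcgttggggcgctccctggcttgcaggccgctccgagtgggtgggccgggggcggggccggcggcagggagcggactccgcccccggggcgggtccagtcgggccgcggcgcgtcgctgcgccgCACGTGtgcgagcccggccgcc
CD3EAP: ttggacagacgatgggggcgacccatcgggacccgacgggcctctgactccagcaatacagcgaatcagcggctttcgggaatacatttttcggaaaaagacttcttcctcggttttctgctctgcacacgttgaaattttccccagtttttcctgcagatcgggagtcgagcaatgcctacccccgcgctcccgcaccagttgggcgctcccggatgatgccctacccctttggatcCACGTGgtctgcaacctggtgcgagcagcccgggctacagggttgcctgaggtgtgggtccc

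Windows were found for 9476 of the 12515 genes tested, 13787 windows in all, none of them on chromosome 8. CACGTG, which reads the same on both strands, was in 9.54% of all windows, in 17.6% of the 540 windows of falling genes and in 3.48% of the 115 windows of rising genes. It was in 44.2% of 40S processing windows, 36.0% of 60S assembly windows, 5.26% of RNA polymerase I windows, 5.26% of ribosomal protein windows and 1.43% of the windows of blood transcription factors. The TATA element TATAAA, searched on both strands, was in 6.48% of windows of falling genes, 5.22% of windows of rising genes and 6.12% of all windows. CCAAT, likewise on both strands, was in 30.2% of windows of falling genes, 45.2% of windows of rising genes and 35.1% of all. These are descriptions of letters in a window and not of binding.

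**Figure D3:**
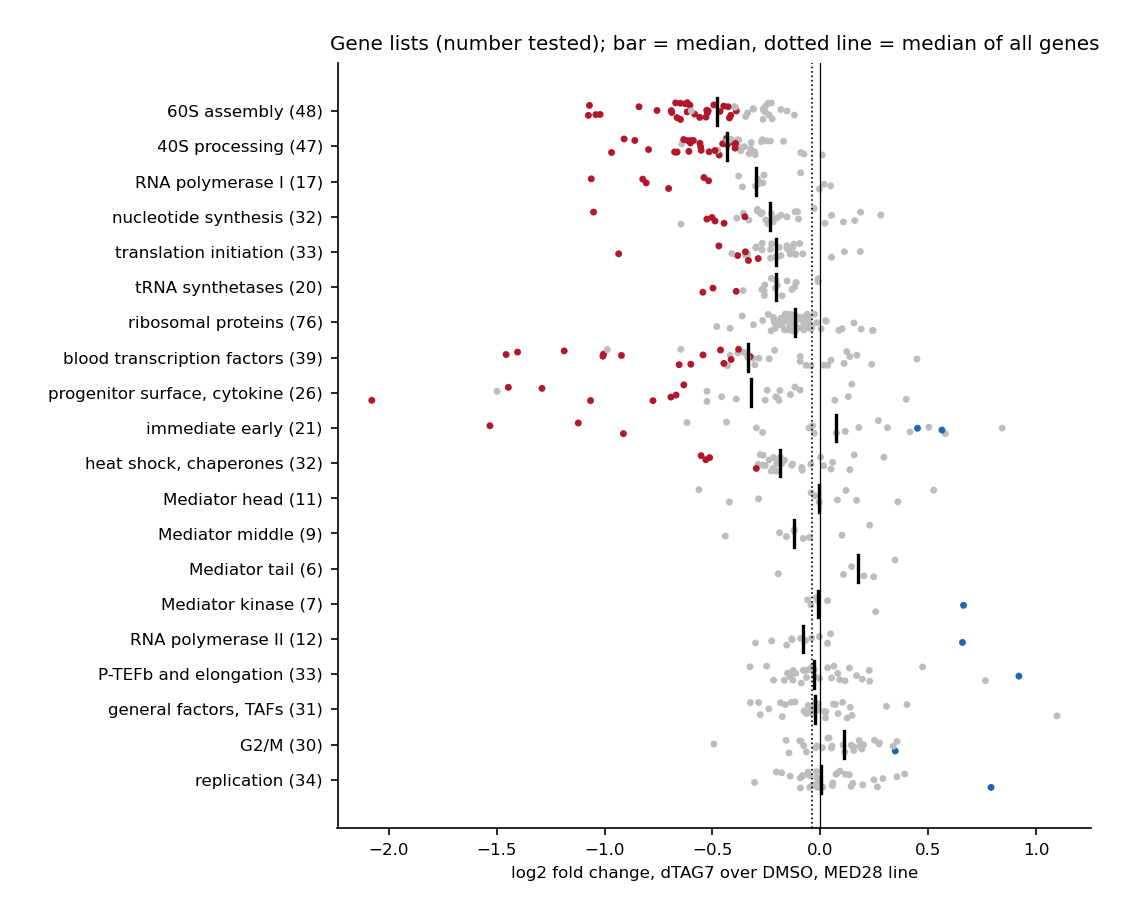
Log2 fold change of dTAG7 over DMSO in the MED28 line for each tested gene of 20 lists (1 point per gene, red for called falls, blue for called rises, grey for not called), with a bar at the median of each list. The 60S assembly and 40S processing lists have medians of -0.48 and -0.43, left of the dotted median of all genes, and the Mediator lists lie around 0.

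Other growth-related groups held fewer falls, to be read against the 4.07% of all genes that fell and their median of -0.04. Nucleotide synthesis genes fell in 6 of 32 cases (median -0.24), led by DHODH of pyrimidine synthesis, with 15.7, 19.8 and 23.5 CPM with dTAG7 and 44.1, 38.8 and 39.7 CPM with DMSO (-1.05 ± 0.22). Only 1 of these 6 calls was kept without DMSO replicate A, that of DHODH. Translation initiation genes fell in 6 of 33 cases (median -0.21), among them the helicase gene EIF4A1 (-0.93 ± 0.21) and EIF3G (-0.47 ± 0.11), and tRNA synthetases in 3 of 20, with both subunits of the phenylalanine enzyme, FARSB (-0.54) and FARSA (-0.50), and LARS (-0.39). Without DMSO replicate A or dTAG7 replicate B or C 2 initiation genes were called, and without DMSO replicate C 3. For nucleotide synthesis 2 genes were called without DMSO replicate B, 1 without dTAG7 replicate B and 3 without dTAG7 replicate C, and 1 tRNA synthetase was called without dTAG7 replicate B. None of 76 ribosomal protein genes was called by edgeR, although their median was -0.12 and the lowest p was that of RPS3A (-0.48 ± 0.15, edgeR adjusted p = 0.0547, called under TMM). None of 31 proteasome genes was called (median -0.08). Chaperone genes fell in 4 of 32 cases, the HSP70 genes HSPA8 (-0.55) and HSPA5 (-0.51), DNAJC2 (-0.53) and CCT3 (-0.30), and 2 were called without DMSO replicate C or dTAG7 replicate B or C.

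Genes that respond within minutes to stimulation were mixed. Of 21 tested immediate early genes 3 fell and 2 rose (median 0.07), against 4.07% falls and 0.775% rises among all genes. ZFP36L2, which promotes mRNA decay, had 126, 125 and 103 CPM with dTAG7 and 403, 283 and 338 CPM with DMSO (-1.53 ± 0.21). Its relative ZFP36L1 went the other way, with 93.6, 104 and 98.8 CPM with dTAG7 and 72.0, 66.2 and 62.4 CPM with DMSO (0.56 ± 0.17, edgeR adjusted p = 0.0324), a call that was lost whichever library was left out. The phosphatase gene DUSP2 (-1.12, not called without DMSO replicate A) and TRIB1 (-0.91) fell. The antiproliferative gene BTG1 rose (0.45), and its call was lost without 4 of the 6 libraries in turn. Of 24 p53 targets 1 fell (AEN, -0.86 ± 0.12), and of 15 BCL2 family genes 1 fell, BCL2 itself (-0.78 ± 0.15), shares near the 4.07% of all genes. Glucose metabolism genes split, with hexokinase HK2 (-0.91) and the lactate carrier SLC16A1 (-0.46) lower and the glucose carrier SLC2A3 (0.63 ± 0.15) higher among 21 tested. HK2 rested on its DMSO values of 77.9, 35.5 and 55.4 CPM, and its call was lost without 4 of the 6 libraries in turn. Replication and G2/M lists had 1 rise each, CCNE2 (0.79) of 34 and HMMR (0.35) of 30, against 0.775% of all genes, and 4 each under TMM, against 2.09%. The call of CCNE2 was lost without DMSO replicate B or dTAG7 replicate A, and that of HMMR without 5 of the 6 libraries in turn.

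Most listed genes of the transcription machinery itself were not called. MED28 mRNA (ENSG00000118579, hg38 chromosome 4, 17614631 to 17634105) had 72.0, 49.8 and 73.3 CPM with dTAG7 and 98.4, 78.1 and 84.2 CPM with DMSO. The groups did not overlap, but the change of -0.42 ± 0.14 was not called on the spike-in scale (edgeR adjusted p = 0.0684) and was called under TMM (-0.38, edgeR adjusted p = 0.00939). mRNA is no measure of the protein that the tag marks. The DMSO level of 86.9 ± 10.4 CPM in the MED28 line was below the 204 ± 21.4 CPM of wild-type cells with DMSO (SD, n = 3 each; log2 difference -1.23 ± 0.13, edgeR adjusted p = 2.26e-09). Of the other genes of the Mediator head (11 tested with MED28), middle (9) and tail (6) none was called on the spike-in scale, and of 7 kinase module genes 1, CDK19, rose, against 0.775% of all genes. CDK19 had 96.2, 98.8 and 90.7 CPM with dTAG7 and 60.2, 56.5 and 63.3 CPM with DMSO, without overlap (0.66 ± 0.14, edgeR adjusted p = 0.000809). Under TMM 1 head gene rose and 1, MED28, fell.

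Rises included a regulator of elongation and the largest subunit of RNA polymerase II. HEXIM1, whose product holds the elongation kinase P-TEFb inactive, had 116, 115 and 95.5 CPM with dTAG7 and 72.0, 46.8 and 54.1 CPM with DMSO (0.92 ± 0.17, edgeR adjusted p = 0.00023). POLR2A had 949, 941 and 942 CPM with dTAG7 and 676, 529 and 589 CPM with DMSO (0.66 ± 0.14, edgeR adjusted p = 0.0013). The 3 dTAG7 libraries lay above all DMSO libraries for both genes, and both were called whichever library was left out. HEXIM1 was the only call among 33 tested genes of P-TEFb and elongation, POLR2A the only one among 12 polymerase II genes, and none of 31 general transcription factor and TAF genes was called, against 0.775% rises and 4.07% falls among all genes. Under TMM BRD2 of the elongation list was called too (0.52). The promoter window of HEXIM1 (RefSeq, GRCh38.p14, chr17:45148225-45148524, plus strand) is shown because, unlike the 4 windows above, it holds TATAAA, in capitals, beginning at -29 from the start.
HEXIM1: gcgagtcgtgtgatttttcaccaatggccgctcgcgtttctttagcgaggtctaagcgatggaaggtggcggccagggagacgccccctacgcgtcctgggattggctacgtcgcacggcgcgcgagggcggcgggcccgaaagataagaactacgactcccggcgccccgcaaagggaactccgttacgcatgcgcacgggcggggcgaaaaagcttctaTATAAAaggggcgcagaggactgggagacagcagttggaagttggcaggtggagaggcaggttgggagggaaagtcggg

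The largest rises were of genes at low levels. ACPP, the prostatic acid phosphatase gene, had 16.5, 18.3 and 19.8 CPM with dTAG7 and 5.91, 8.08 and 6.11 CPM with DMSO (1.45 ± 0.28, edgeR adjusted p = 0.000356). TLR6, a receptor of the innate immune system, had 25.8, 28.2 and 30 CPM with dTAG7 and 10.2, 14 and 11.3 CPM with DMSO (1.24 ± 0.23, edgeR adjusted p = 0.0002). The ETS factor gene ETV1 had 12.7, 12.8 and 10.5 CPM with dTAG7 and 3.76, 5.92 and 4.36 CPM with DMSO (1.36 ± 0.35). The groups were apart for all 3 genes. SMIM14 (1.44) and the inflammasome gene NLRP1 (1.19) rose too and, like ACPP and TLR6, were called whichever library was left out. TPTEP2 (1.55), TMEM154 (1.47), FILIP1L (1.47), ETV1, FAM214B (1.33), ZMAT1 (1.28), C1orf115 (1.23) and PLEKHH2 (1.20) lost their calls without 1 or more libraries. TPTEP2 is a pseudogene, TLR6 overlaps its close relative TLR1 on the same strand, and FILIP1L overlaps CMSS1 on the opposite strand, so the counts of these genes are uncertain. ATP1B1, a sodium pump subunit, had 68.6, 90.7 and 81.0 CPM with dTAG7 and 43.0, 42.0 and 34.0 CPM with DMSO (1.02 ± 0.16, edgeR adjusted p = 1.66e-05), with NME7 on the opposite strand.

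Wild-type cells show how far dTAG7 acts without a tag. In them edgeR called 0 genes with dTAG7 on the spike-in scale (490 at an unadjusted p under 0.05) and 0 under TMM (344). The 509 genes that fell in the MED28 line had a median change of 0.09 in wild-type cells, and the 97 that rose had 0.11. All genes tested had a median of 0.09 there. The dTAG7 effect in the MED28 line minus that in wild-type cells was called higher for 7 genes (0.0559% of 12515) and lower for 228 (1.82%), with the median gene at -0.14. This and the later differences between lines use the same 6 MED28 libraries. Under TMM the median difference was 0.00 and the counts were 38 (0.295%) and 181 (1.4%). MYC differed by -3.01 ± 0.43 (edgeR adjusted p = 4.47e-06) and had 120 ± 43.6 CPM with dTAG7 and 123 ± 34.2 CPM with DMSO in wild-type cells (SD, n = 3 each). The lowest p-values belonged to AC244502.1 (-1.91 ± 0.18), AL034397.3 (-1.94 ± 0.23), MYB (-1.27 ± 0.15), BCL11A (-1.45 ± 0.17) and ANGPT1 (-1.39 ± 0.17). HEXIM1 (0.96 ± 0.25, edgeR adjusted p = 0.019) and ATP1B1 (0.98 ± 0.23, edgeR adjusted p = 0.0108) were among the higher genes. Of the list members, 19 of 48 60S assembly genes, 16 of 47 40S processing genes, 8 of 39 blood transcription factors and 7 of 26 progenitor and immune surface genes differed from wild-type cells. The total of 235 was 98 without wild-type DMSO replicate C, 148 without wild-type dTAG7 replicate A, 124 without MED28 DMSO replicate A and 137 without MED28 dTAG7 replicate B.

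MED6 is the other head subunit with a tagged line. The MED28 effect minus the MED6 effect was called higher for 36 genes (0.288%) and lower for 3 (0.024%), with the median gene at 0.23. Under TMM, which sets that shift to 0, 14 were higher (0.109%) and 22 lower (0.171%). On the spike-in scale 1785 genes had an unadjusted edgeR p under 0.05, so the low number of calls does not show that few genes differed. FAM43A and BCL11A were lower in the MED28 comparison on both scales. FAM43A had 123 ± 1.52 CPM with dTAG7 and 271 ± 25 CPM with DMSO in the MED28 line, and 148 ± 17.1 CPM with dTAG7 and 159 ± 11.1 CPM with DMSO in the MED6 line (difference -1.04 ± 0.17, edgeR adjusted p = 0.0013). BCL11A fell by 1.46 in the MED28 line and by 0.67 in the MED6 line (difference -0.79 ± 0.18, edgeR adjusted p = 0.0216). The third was the antisense RNA BDNF-AS, with a change of 4.12 in the MED6 line and 1.08 to 3.49 CPM in all 6 libraries of the MED28 line. In the other direction, KAT5, a histone acetyltransferase gene, had 170 ± 5.15 CPM with dTAG7 and 196 ± 24.1 CPM with DMSO in the MED28 line, and 67.2 ± 7.60 CPM with dTAG7 and 166 ± 21.2 CPM with DMSO in the MED6 line (difference 1.11 ± 0.19, edgeR adjusted p = 0.0013). ACPP differed by 2.10 ± 0.41 (edgeR adjusted p = 0.01), with values of 1.45 in the MED28 line and -0.65 in the MED6 line, the second not called. ETV1 differed by 2.16 ± 0.53 on the spike-in scale (edgeR adjusted p = 0.0494) and was not called under TMM. The MYC effects differed by -1.45 ± 0.46, which was not called on the spike-in scale (edgeR adjusted p = 0.124) and called under TMM (-1.64, edgeR adjusted p = 0.0385). MYB differed by -0.60 ± 0.15, just short of a call on the spike-in scale (edgeR adjusted p = 0.05002), and was called under TMM (-0.85, edgeR adjusted p = 2.36e-05). PLD6 likewise was called only under TMM (-1.02, edgeR adjusted p = 0.0109).

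The count of 39 rests on the libraries used. It was 6 without MED28 DMSO replicate B, 12 without MED28 DMSO replicate C or dTAG7 replicate A, 17 without MED28 dTAG7 replicate C, and 9, 14 or 18 without MED6 DMSO replicate A, B or C. It was 13, 134 or 118 without MED6 dTAG7 replicate A, B or C. A fit on the 12 libraries of the 2 lines called 0 genes (edgeR, 1439 at an unadjusted p under 0.05), DESeq2 called 207 and limma on the loess-normalised values 1.

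**Figure D4:**
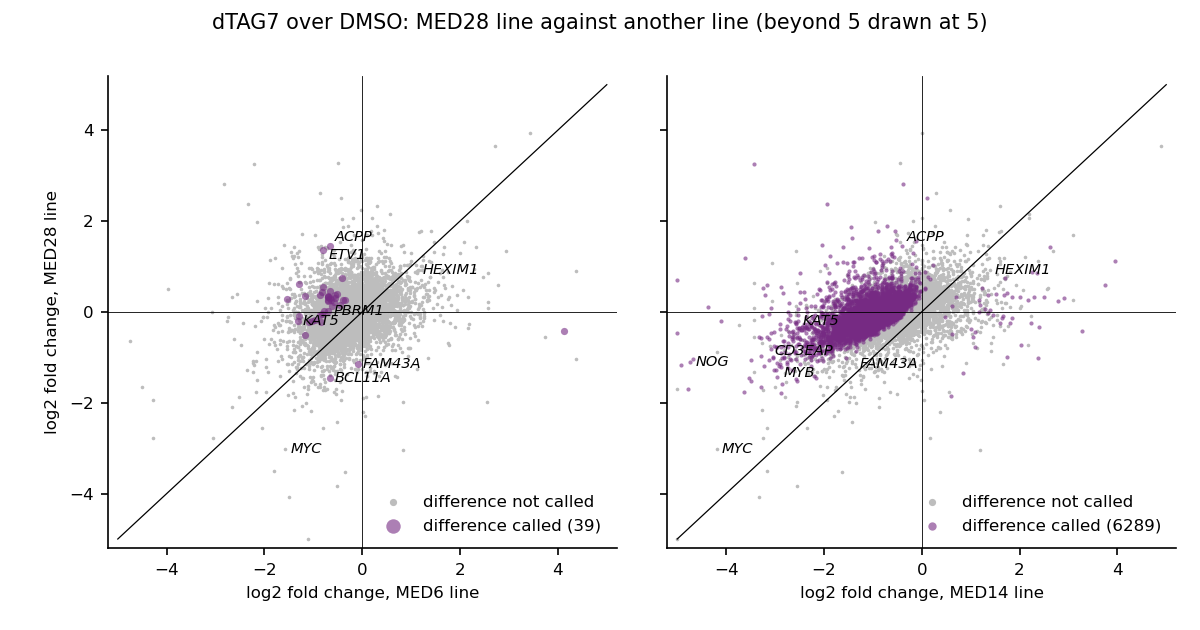
Log2 fold change of dTAG7 over DMSO in the MED28 line (vertical axis) against the MED6 line (left) and the MED14 line (right), 1 point per gene tested on the spike-in scale, with the line of equal change and genes whose difference was called in purple (39 and 6289). In the right panel most genes lie above the line of equal change, since the median gene differed by 0.66.

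MED14 holds the modules of Mediator together, and its line had much broader falls. The MED28 effect minus the MED14 effect was called higher for 6243 genes (49.9%) and lower for 46 (0.368%), around a median gene of 0.66, and under TMM the counts were 480 (3.72%) and 212 (1.64%). Several genes that fell in the MED14 line had a smaller change in the MED28 line also relative to that shift, among them CD3EAP, LYL1 and MYB, which fell in both lines, and KAT5, which was not called in the MED28 line (-0.21). CD3EAP differed by 2.05 ± 0.19 on the spike-in scale and by 1.42 under TMM, LYL1 by 2.06 ± 0.20 and 1.43, MYB by 1.73 ± 0.16 and 1.09, and KAT5 by 2.33 ± 0.20 and 1.70. MYB had 372 ± 16.2 CPM with dTAG7 and 847 ± 28.5 CPM with DMSO in the MED28 line, and 72.3 ± 11.3 CPM with dTAG7 and 541 ± 26.5 CPM with DMSO in the MED14 line. MYC did not follow this pattern to the point of a call, with a difference of 1.16 ± 0.59 (edgeR adjusted p = 0.0912) and 0.53 under TMM (edgeR adjusted p = 0.657), at changes of -3.03 in the MED28 line and -4.19 in the MED14 line. FAM43A had changes of -1.14 and -1.37 in these lines, a difference that was not called (edgeR adjusted p = 0.275). HEXIM1 rose by 0.92 in the MED28 line and by 1.40 in the MED14 line, and the difference was called under TMM (edgeR adjusted p = 0.000131) and not on the spike-in scale (edgeR adjusted p = 0.0857).

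Across the other tagged lines, each set against its own DMSO libraries, the genes that fell in the MED28 line were mostly called lower in the MED14 and MED10 lines. Of the 509 falls 502 were also called lower in the MED14 line (98.6% of the MED28 falls and 6.34% of the MED14 falls), or 493 of 559 under TMM (88.2% and 23.1%). In the MED10 line, tagged on a middle subunit, 466 were shared (91.6% and 19.6%), in the MED6 line 336 (66% and 14.6%), in the MED12 line, tagged on a kinase module subunit, 287 (56.4% and 67.5%), in the MED31 line 143 (28.1% and 43.7%) and in the MED26 line 54 (10.6% and 15%). None was called lower in the MED1 line or in wild-type cells. Of all genes tested, 63.3% were called lower in the MED14 line, 19% in the MED10 line, 18.4% in the MED6 line, 3.4% in the MED12 line, 2.88% in the MED26 line and 2.61% in the MED31 line, and under TMM 16.6% in the MED14 line, 5.7% in the MED12 line and 3.66% in the MED6 line. Under TMM the MED6 line shared 156 (27.9% and 33.1%), so its share depends on the scale more than that of the MED12 line, which was 384 (68.7% and 52.2%).

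The rises were shared to a varying extent. Of 97 rises 59 were also called higher in the MED10 line (60.8% of the MED28 rises and 17.4% of the MED10 rises), 42 in the MED12 line (43.3% and 21.3%), 27 in the MED14 line (27.8% and 12.7%) and 10 in the MED6 line (10.3% and 10.3%). Of all genes tested, 2.71% were called higher in the MED10 line, 1.7% in the MED14 line, 1.57% in the MED12 line and 0.775% in the MED6 line. Under TMM the MED14 line shared 195 of 270 (72.2% and 11.3%), with 13.4% of all genes called higher. HEXIM1 and POLR2A were called higher in the MED14, MED10, MED6, MED31 and MED26 lines and had changes of 0.06 and 0.19 in the MED12 line, where neither was called. ACPP, ETV1 and ATP1B1 had the other order: calls for a rise were made in MED12-dTAG cells (1.13, 1.07 and 0.54) and not in MED6-dTAG cells (-0.65, -0.80 and 0.10).

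**Figure D5:**
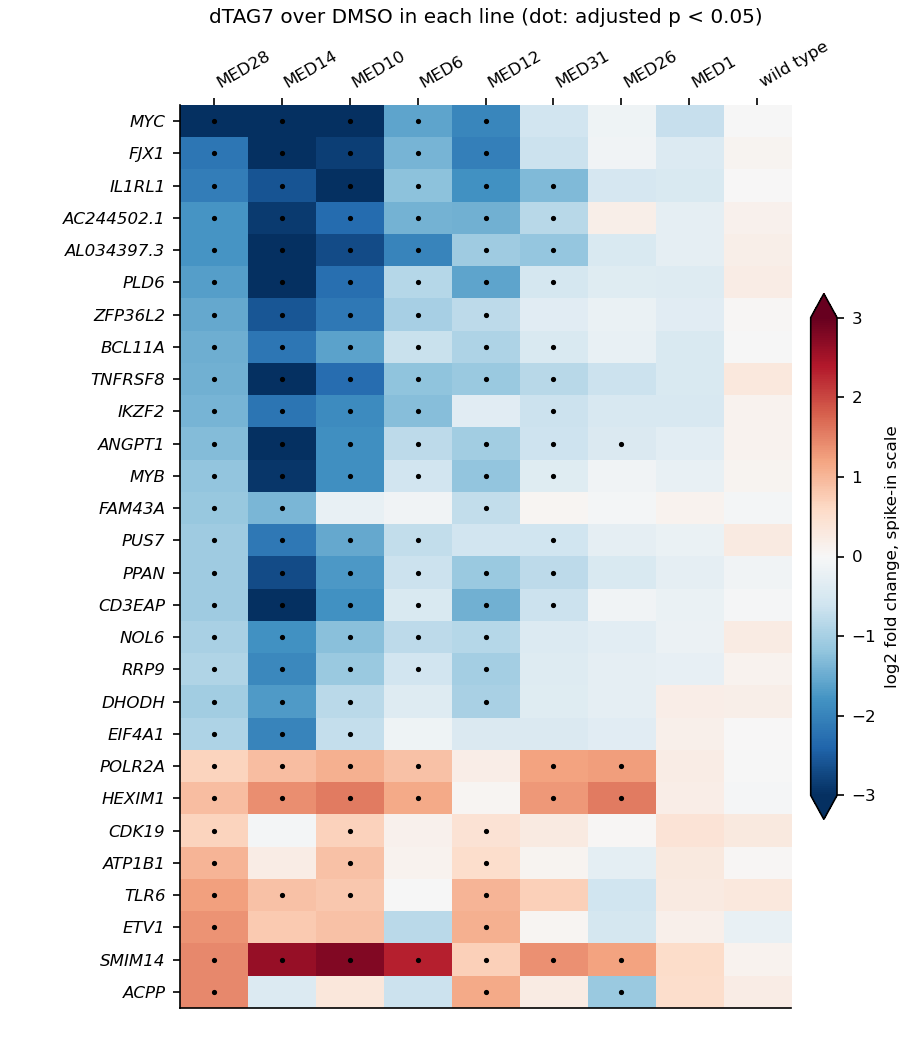
Log2 fold change of dTAG7 over DMSO for 28 genes named in the MED28 comparison (rows) in each tagged line and in wild-type cells (columns), on the spike-in scale with colours capped at 3 in either direction and a dot where the adjusted p was under 0.05. MYC to EIF4A1 are lower in the MED28 line and have no dot in the MED1 line or in wild-type cells, and HEXIM1 and POLR2A carry dots in 6 lines.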

How the data were processed

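RNA of KBM7 cells was turned into QuantSeq 3' libraries and read in single 50 bp reads, with SIRV-Set-3 spike-ins (ERCC and SIRV) added to each lysate, per the labels' protocols. Per the submitters' processing notes the tools were bedtools 2.26.0, HTSeq 0.6.0 and STAR 2.5.2b and the build hg38, with no role or order, and the strand setting of counting is not given in the sources used here. The authors deposited raw counts for 13331 genes and 44 spike-in rows in 66 libraries, where every gene had at least 70 counts in all, and a second table of loess-normalised values, a signal the authors scaled so that spike-in totals are nearly equal, used here in 1 alternative only. GENCODE 29 named 13297 genes.

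The main test was the quasi-likelihood F test of edgeR 4.0.16 under R 4.3.3, with 22 group means over 66 libraries (44 residual degrees of freedom), library size from the spike-in total, filterByExpr, and Benjamini-Hochberg adjusted p under 0.05 over all 12515 genes, called in the text. Sharing the spread over all groups is the design used throughout. The standard error is the log2 change divided by the root of F. Alternatives were TMM, median-of-ratios scaling, no filter, a filter of 5 CPM in 3 libraries, the compared libraries only, a replicate block, DESeq2 1.42.0, limma 3.58.1 on log2(loess value + 1), and each library left out. The edgeR steps were tested on simulated data.

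Named were the 15 largest called falls and 12 largest called rises of at least 5 CPM with no overlap, a few fixed genes, up to 3 called members of each list in each direction, and the lowest p-values and largest called values of each difference. Further list members, IL18R1, the low-count genes and BDNF-AS were named after their values were seen. The comparison, the 30 gene lists and the 7 marker lists were chosen with earlier results of these data known. Promoters and their letters are from RefSeq. At 2680976 to 3784282 gene counts a library, genes under 5 CPM rest on few counts.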

Additional observations from a re-analysis of the deposited data

Results flagged for a closer look

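By edgeR's test of the difference itself, dTAG7 acted unequally in the MED28 line and in wild-type KBM7 on MYC (-3.01 on the log2 scale), ANKRD13B (-2.44), FJX1 (-2.25), AL034397.3 (-1.94), AC244502.1 (-1.91), BCL11A (-1.45), ANGPT1 (-1.39), MYB (-1.27), HEXIM1 (0.96), ATP1B1 (0.98) and PIDD1 (1.80). PIDD1 was called in neither line alone, with changes of 0.71 in the MED28 line and -1.09 in wild-type cells.

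The effect differed from that in the MED6 line for ETV1 (2.16), ACPP (2.10), SH3TC1 (1.90), AL392172.1 (1.83), PHTF1 (1.23), KAT5 (1.11), PBRM1 (0.70), BCL11A (-0.79) and FAM43A (-1.04). Under TMM the differences of ETV1, SH3TC1 and AL392172.1 were not called (edgeR adjusted p = 0.0763, 0.0536 and 0.0992). PBRM1, a chromatin remodelling gene, changed by 0.01 in the MED28 line.

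Against the MED14 line, where the median gene differed by 0.66, the test called TMEM53 (3.73), NOG (3.63), SRCAP (3.25), KAT5 (2.33), LYL1 (2.06), CD3EAP (2.05), MYB (1.73), SRSF3 (1.58), HAP1 (-1.97), GATM (-2.06) and AC120053.1 (-2.56).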

How the results depend on the processing

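The MED28 comparison gave 606 calls. On the 6 libraries of the line it gave 1170, with TMM on these 1525 and with the replicate block on these 1627 (both of these settings chosen after seeing the data), and limma on the loess values gave 320. Leaving out 1 library at a time gave 336 to 440. The difference from wild-type cells (235) became 409 with DESeq2, 522 on the compared lines only, 112 with limma and 98 to 279 without 1 library. The difference from the MED6 line (39) became 207 with DESeq2, 0 on the compared lines only (edgeR, 1439 at an unadjusted p under 0.05), 1 with limma and 6 to 134 without 1 library. The difference from the MED14 line (6289) became 692 with TMM, 673 with median-of-ratios scaling and 5423 to 6477 without 1 library. The log2 ratio of gene to spike-in counts differed by -0.11 to -0.04 without 1 library. The same check of the other lines was chosen after seeing the data. The cause of these shifts was not tested. Of 76 named genes called in the MED28 comparison, 76 were called with TMM, 75 with DESeq2, 60 with limma and 56 to 68 without 1 library, and none of these calls reversed. The balance of the difference from the MED6 line did turn, from 36 genes higher and 3 lower on the spike-in scale to 14 higher and 22 lower under TMM.

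Deviations of same-letter libraries had correlations of 0.06, 0.01 and 0.06 over 7825 genes, against -0.09 to 0.03 for libraries of different letters. Counting noise weakens such correlations, so they cannot settle whether the letters pair the libraries. With a replicate block the counts were 570, 208, 34 and 6235 for the comparison and its differences from the wild-type, MED6 and MED14 lines, 811 for the comparison with TMM, and the ratio had an exact p of 0.25.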
